A study of Mus musculus with 3 samples.

Results

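The 3 regions described here are large clusters of olfactory receptor genes, at chr2:85200000-89900000, chr9:38000000-39800000 and chr16:58700000-59500000 of mouse build mm9. They were chosen by position, with earlier results of these data known, and span 4.7, 1.8 and 0.8 Mb. Their members are the fragments between neighbouring GATC sites whose middle lay inside these bounds, 19491 of the 6415372 fragments measured, with 7959 more in the 500 kb on either side of each cluster.

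The study mapped lamina-associated domains (LADs), the parts of the genome that touch the nuclear lamina, by DamID. In this method the bacterial enzyme Dam is fused to a protein of the nuclear periphery and methylates adenine in GATC wherever the fusion meets DNA. All 3 groups were C57BL/6 wild-type mouse embryonic fibroblasts, transduced with a murine retrovirus that carried Dam-Lamin A, Dam-Lap2b or Dam only, with 1 sample in each. Lamin A forms filaments of the lamina, and Lap2b sits in the inner nuclear membrane. The labels do not give the promoter of the cassette or whether cells were pooled from several embryos. No expression was measured, so the cell type was not checked against markers here. Each value is an average over a cell population, so a weak contact in all cells and a strong contact in some cannot be told apart.

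Olfactory receptors are G-protein-coupled receptors of the nose, and their genes form the largest gene family of the mouse. Each mature olfactory neuron expresses a single receptor allele and keeps the rest silent in compact chromatin, and other tissues such as fibroblasts transcribe few of them. The genes are short, lie in long tandem arrays and have AT-rich surroundings, and many are close copies of their neighbours.

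In a RefSeq gene table of another build (GRCm38.p6), used for names, order and promoter windows but not to place genes on the profiles, the longest runs of neighbouring olfactory receptor genes on these chromosomes held 222, 95 and 25 protein-coding genes. Together these 342 genes made up 30.8% of the 1109 in the table. A further 71, 31 and 7 receptor pseudogenes lay among them. The run on chromosome 2 went from Olfr987 to Olfr1274 and was interrupted only by Fads2b, Pramel7 and Pramel6. That on chromosome 9 went from Olfr160 to Olfr986, with Vwa5a, AW551984 and Tmem225 in between. No other protein-coding gene stood between Olfr172 and Olfr209 on chromosome 16. The nearest protein-coding genes outside were Lrrc55 and Ptprj on chromosome 2, Panx3 and Zfp202 on chromosome 9, and Cldnd1 and Gabrr3 on chromosome 16. The genes were not placed on the mm9 coordinates of the profiles.

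Of the 342 genes, 287 matched a 300-base RefSeq window from 250 bases before to 50 after the annotated start. The windows of the first gene in each run that holds a GATC are shown because GATC, in capitals, is the site that Dam methylates and that bounds every fragment measured here. They lie on the minus strand of GRCm38.p6 at chr2:85430778-85431077 (Olfr994), chr9:37712231-37712530 (Olfr160) and chr16:58826712-58827011 (Olfr175).
Olfr994: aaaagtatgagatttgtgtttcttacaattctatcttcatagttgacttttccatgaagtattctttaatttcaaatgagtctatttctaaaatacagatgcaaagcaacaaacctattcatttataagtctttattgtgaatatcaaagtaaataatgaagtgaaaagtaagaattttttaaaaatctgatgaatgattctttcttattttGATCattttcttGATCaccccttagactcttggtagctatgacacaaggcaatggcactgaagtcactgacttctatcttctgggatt
Olfr160: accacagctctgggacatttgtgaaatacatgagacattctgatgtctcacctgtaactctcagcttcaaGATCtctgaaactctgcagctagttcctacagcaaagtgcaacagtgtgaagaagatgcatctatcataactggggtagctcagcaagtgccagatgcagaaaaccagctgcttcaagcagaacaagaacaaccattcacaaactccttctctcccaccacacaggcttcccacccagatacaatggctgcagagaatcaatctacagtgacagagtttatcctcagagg
Olfr175: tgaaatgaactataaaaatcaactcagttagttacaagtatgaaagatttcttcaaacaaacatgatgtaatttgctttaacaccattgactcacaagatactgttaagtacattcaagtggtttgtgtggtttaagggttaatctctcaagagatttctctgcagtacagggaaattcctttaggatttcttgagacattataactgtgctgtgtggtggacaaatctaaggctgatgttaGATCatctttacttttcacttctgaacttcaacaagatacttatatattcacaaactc
The 3 windows held 29.3%, 46.0% and 33.0% G and C, and none held a CpG.

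GATC, which also reads the same on both strands, occurred in 48.1% of the receptor windows and in 48.0% of 27025 windows of all genes. The receptor windows were richer in A and T. Their median G and C content was 32.0% on chromosome 2, 35.3% on chromosome 9 and 34.8% on chromosome 16, against 52.7% over all genes. Their median ratio of observed to expected CpG was 0.12, against 0.39. The palindrome TAATTA, the core letters of many homeodomain sites, was found in 22.0% of receptor windows and 5.31% of all windows. Among the 656 windows of other olfactory receptor genes the share was 17.2%. The motif reads the same on both strands and does not overlap GATC, and a match is a description of the letters only. TAATTA consists of A and T alone, no windows matched in base composition were compared, and the part of composition was not tested.

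Each profile gives a log2 value per fragment, which had the form of fusion reads over reference reads with 1 read added to both. A constant was added in each profile, 0.085 under the Dam-Lamin A label and 0.022 under the Dam-Lap2b label, so a fragment with equal reads in both libraries lies slightly above 0. A value above the constant thus means more reads from the fusion than from the reference. The reference was presumed to be the Dam only library and to be shared by both profiles. That sharing alone makes the profiles resemble each other, so their values are given side by side and no correlation between them is reported. Labels of profiles and lists went crosswise over the genome. The 10 kb bins that only the Dam-Lamin A list covered averaged −0.04 in the Dam-Lamin A profile but 0.46 in the Dam-Lap2b profile. Those that only the Dam-Lap2b list covered averaged 0.37 and 0.04. Each profile and list is therefore called below only by the protein in its label, and which fusion it came from was not settled here. With 1 sample per group there is no replicate error, no test was possible, and every SD below describes variation along the sequence.

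All 3 clusters were strongly enriched in both profiles. On chromosome 2 the 12475 fragments averaged 1.93 ± 1.34 (SD) in the Lamin A profile and 1.95 ± 1.07 in the Lap2b profile. On chromosome 9 the 4793 fragments averaged 1.65 ± 1.37 and 1.64 ± 1.10. On chromosome 16 the 2223 fragments averaged 1.66 ± 1.62 and 1.47 ± 1.26. The means over all fragments of the genome were 0.30 and 0.33. Single fragments were noisy. In the Lamin A profile 87.9%, 82.5% and 82.4% of those in the clusters on chromosomes 2, 9 and 16 were above its constant, against 52.6% over the genome. In the Lap2b profile these shares were 92.4%, 87.7% and 83.2%, against 54.8%.

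Averages over 10 kb bins showed how even the signal was. On chromosome 2, 470 of 470 bins were above 0 in both the Lamin A profile and the Lap2b profile, where 55.2% and 59.3% of all 255936 bins of the genome were. The bins there ran from 0.10 through a median of 1.92 to 3.25 in the Lamin A profile, and from 0.71 through 1.97 to 3.11 in the Lap2b profile. Chromosome 9 had 177 and 179 of 180 bins above 0, with a median of 1.67 in each profile and lowest bins of −0.50 and −0.37. Chromosome 16 had 71 and 72 of 80 bins above 0, with medians of 2.01 and 1.69, and its bins below 0 lay mostly at the outer ends. Bins above 1 made up 96.6% of the chromosome 2 cluster in the Lamin A profile and 99.1% in the other, against backgrounds of 33.8% and 37.4%.

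**Figure D1:**
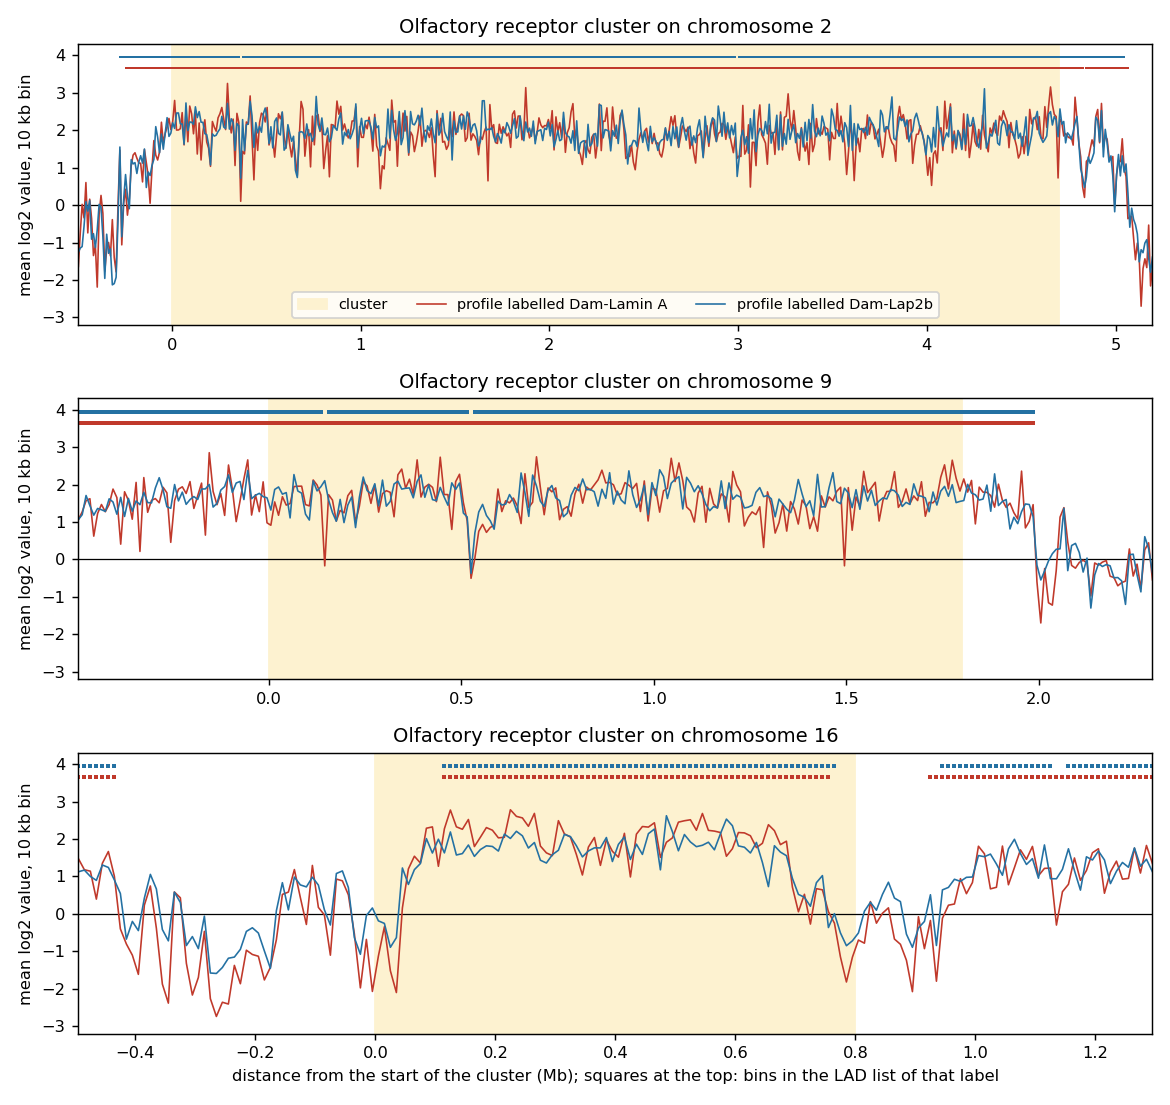
Mean log2 value in 10 kb bins (vertical axis) against distance from the start of each cluster in Mb, with 500 kb on either side. Red is the Lamin A profile, blue the Lap2b profile, the shaded span is the cluster, and squares at the top mark bins in the LAD list of that label. All 470 bins on chromosome 2 lie above 0, and the cluster on chromosome 16 forms a plateau between flanks that are lower on average.

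The chromosome 2 cluster stood near the top of the genome for its size. Its mean over bins was 1.89 in the Lamin A profile and 1.98 in the Lap2b profile. Of 530 other windows of 4.7 Mb laid end to end along the genome, 2 were higher in the Lamin A profile and 0 in the Lap2b profile, where the highest reached 1.97. The chromosome 9 cluster was exceeded by 71 and 68 of 1405 windows of 1.8 Mb. The chromosome 16 cluster was exceeded by 322 and 537 of 3185 windows of 0.8 Mb. Window medians lay between 0.15 and 0.38. The windows lay on a fixed grid from the start of each chromosome, without regard to LAD edges, and other placements were not tried. These ranks describe the 2 libraries and are not tests.

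Over all single 10 kb bins of the genome, the mean of the chromosome 2 cluster exceeded 90.7% in the Lamin A profile and 95.0% in the Lap2b profile. Over bins in both lists, which averaged 1.29 ± 0.69 and 1.34 ± 0.54, it exceeded 80.9% and 89.7%. The mean of the chromosome 9 cluster exceeded 83.6% and 86.2% of all bins and 66.3% and 71.6% of those in both lists. That of the chromosome 16 cluster exceeded 82.0% and 77.7% of all bins and 63.1% and 54.2% of those in both lists. Single bins vary more than long windows, so these shares are not comparable with the ranks among windows.

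Within the chromosome 2 cluster the signal hardly varied over long distances. Its 9 complete segments of 500 kb averaged between 1.82 and 2.02 in the Lamin A profile and between 1.86 and 2.09 in the other. The spread between single bins was larger, with an SD of 0.47 and 0.34, but smaller than over all bins in both lists. On chromosome 9 the 3 complete segments of 500 kb lay between 1.46 and 1.69 in the Lamin A profile and between 1.57 and 1.72 in the Lap2b profile. The chromosome 16 cluster was a plateau with steep ends. Segments of 100 kb lay between 1.81 and 2.23 in the Lamin A profile over its inner 6 segments, while both profiles were lower, at 0.38 and 0.62, in the first and, at −0.27 and 0.06, in the last.

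The bin with the highest mean of both profiles on chromosome 2 was chr2:85490001-85500000, with 3.25 in the Lamin A profile and 2.71 in the other. On chromosome 9 it was chr9:39060001-39070000, with 2.58 and 2.21, and on chromosome 16 it was chr16:58820001-58830000, with 2.77 and 2.19. In all 3 of these bins the Lamin A profile was the higher. The lowest bins were chr2:85560001-85570000, with 0.10 in the Lamin A profile and 0.71 in the Lap2b profile, chr9:38520001-38530000, with −0.50 and −0.37, and chr16:58730001-58740000, with −2.10 and −0.63. The first 2 overlapped breaks of the Lap2b list described below without matching their bounds, and the last lay outside both lists.

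Read numbers of the 3 libraries could be recovered as whole numbers from the log2 values. These are lower bounds, since a common factor of the 3 numbers is lost. Over all bins of the genome the libraries differed little: Dam-Lamin A held 54.8 reads per kb, Dam-Lap2b 59.7 and the reference 60.4. The chromosome 2 cluster held 65.5 and 74.2 reads per kb in the fusion libraries but 16.2 in the reference. On chromosome 9 the 3 values were 53.7, 60.9 and 16.3, and on chromosome 16 they were 71.2, 72.1 and 25.3. In reads, the chromosome 2 cluster thus rests on 305201, 345730 and 75743, the chromosome 9 cluster on 95833, 108823 and 29100, and the chromosome 16 cluster on 56445, 57190 and 20079.

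The reference lay further from its genome mean than the fusions did. On the log2 scale the reference in the chromosome 2 cluster lay at −1.89 relative to all bins, while the Dam-Lamin A and Dam-Lap2b libraries lay at 0.26 and 0.31. For chromosome 9 the values were −1.89 for the reference and −0.03 and 0.03 for the fusions. For chromosome 16 they were −1.25, 0.38 and 0.27. Relative to bins in both lists, the clusters on chromosomes 2 and 9 had 62.0% and 62.1% of the reference reads per kb. They had 98.1% and 80.4% of the Dam-Lamin A reads and 104% and 85.6% of the Dam-Lap2b reads. In these 2 clusters the reference was thus below its level in LAD sequence, and the fusion reads were close to or below theirs. The chromosome 16 cluster was at 96.6% of the LAD level in the reference and at 107% and 101% in the fusions. How far the low reference sets the high ratios was not tested.

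**Figure D2:**
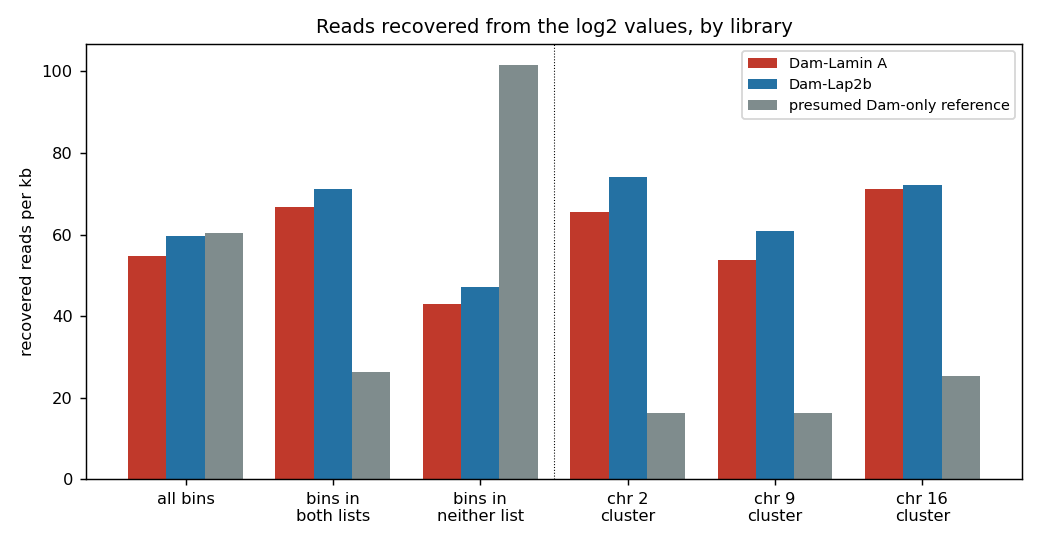
Reads per kb recovered from the log2 values (vertical axis) in 3 classes of genome bins and in the 3 clusters, for the Lamin A library (red), the Lap2b library (blue) and the presumed Dam-only reference (grey). The reference bars of the clusters on chromosomes 2 and 9 stand at 16.2 and 16.3 reads per kb, against 26.2 in bins in both lists and 102 in bins in neither list.

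Receptor genes are close copies of each other, so reads that map equally well to several places could have been lost. Fragments without recovered reads in any of the 3 libraries made up 1.68% of the cluster on chromosome 2, 3.34% on chromosome 9 and 1.48% on chromosome 16, against 2.75% over the genome. These shares are upper bounds, since equal read numbers in all 3 libraries also come out at 0. The median fragment length was 234, 237 and 216 bp, against 258 bp. How the authors treated reads with several matches is not given in the sources used here, and its part in the values was not tested.

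The signal differed between the flanks. On chromosome 2 the left flank averaged 0.32 in the Lamin A profile and 0.24 in the other, and the right flank 0.85 and 0.87. The cluster exceeded both flanks together by 1.34 in the Lamin A profile and 1.38 in the Lap2b profile. Because the signal ran past the bounds, this difference depended on the flank: it was 0.45 and 0.51 with 250 kb and 2.20 and 2.13 with 1 Mb. On chromosome 9 the left flank, at 1.64 and 1.63, was as high as the cluster, and the right flank averaged 0.53 and 0.52. Its cluster exceeded the flanks by 0.56 and 0.55, or by 0.191 and 0.175 with flanks of 250 kb and 1.44 and 1.32 with 1 Mb. Whether the flanks there hold receptor genes of the same run was not determined, since genes were not placed on mm9. On chromosome 16 the left flank averaged −0.19 in the Lamin A profile and 0.18 in the Lap2b profile, and the right flank 0.68 and 0.91. That cluster exceeded its flanks by 1.43 and 0.93.

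LAD edges followed the same course. On chromosome 2 the LADs over the left bound began 252 kb before it in the Lamin A list and 281 kb before it in the other list. Those over the right bound ended 127 and 350 kb after it, at positions 90027115 and 90250457. The end in the Lamin A list was only a short gap, after which that list resumed and ran past the Lap2b end. In the 50 kb outside position 90027115 the signal was still 1.13 in the Lamin A profile and 0.96 in the Lap2b profile. Of this right flank, the Lamin A list covered 72.1% and the Lap2b list 70.1%. On chromosome 9 the LADs began 519 and 505 kb before the cluster and ended 187 kb after it in both lists, at positions 39986840 and 39986856. At that edge the mean over 50 kb dropped from 1.47 to −0.85 in the Lamin A profile and from 1.31 to −0.19 in the Lap2b profile. The chromosome 16 LAD lay inside the bounds, from the same base, 58810817, in both lists to 59455486 in the Lamin A list and 59467457 in the other. It did not stand alone: other LADs covered 76.6% of the right flank in the Lamin A list and 68.3% in the Lap2b list. In the left flank these shares were 14.7% and 13.8%.

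At the left end of the chromosome 16 cluster the lists and the signal parted. Bins were continuously above 0 from position 58740001 in both profiles, while both lists began at 58810817. In the 50 kb just outside the listed edge the profiles averaged 1.71 and 1.58, against 2.43 and 1.77 just inside. Bins above 0 then continued to position 59420000 in the Lamin A profile and 59450000 in the Lap2b profile.

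Almost the whole of the larger clusters lay in both lists. The share of length in both was 99.7% on chromosome 2, 98.9% on chromosome 9 and 80.6% on chromosome 16, against 47.5% of the span of the genome. By bins, 47.9% of the genome had their middle in both lists. The 65 such bins of the chromosome 16 cluster averaged 1.89 in the Lamin A profile and 1.67 in the Lap2b profile, while the 14 bins in neither list averaged 0.07 and 0.44.

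The breaks inside the clusters were short. The Lamin A list had none, and the Lap2b list had 2 on chromosome 2 and 2 on chromosome 9, all covered by the list of the other label. They measured 8.29, 7.66, 10.8 and 8.31 kb. Merging LADs across gaps under 25 kb removed all 4. Per 10 Mb of LAD, gaps under 25 kb in the Lap2b list numbered 5.62 in the clusters, from these 4, and 3.49 over the genome. In the Lamin A list they numbered 0 in the clusters and 3.24 over the genome.

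The first break on chromosome 2, chr2:85562146-85570431, held 22 fragments. They averaged −0.28 in the Lamin A profile and 0.64 in the Lap2b profile, against 2.01 and 2.06 over 50 kb on each side. The second, chr2:88194456-88202111, held 20 fragments that averaged 0.06 and 0.75, against 1.81 and 1.81 beside it. Both profiles dipped in these breaks, and the Lamin A profile dipped further, although only the Lap2b list was interrupted. In the first, 133 reads of Dam-Lamin A stood against 357 of Dam-Lap2b and 168 of the reference, and in the second 156 stood against 406 and 158.

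The first break on chromosome 9, chr9:38137744-38148560, was low in 1 profile only. Its 13 fragments averaged −0.41 in the Lamin A profile and 1.84 in the Lap2b profile, against 1.56 and 1.41 beside it. It held 55 reads of Dam-Lamin A, 377 of Dam-Lap2b and 87 of the reference, and 12 of the 13 fragments were lower in the Lamin A profile after subtraction of the constants. Its fragments were long, with a median of 714 bp and 5 of 1000 bp or longer. The largest contrast was at chr9:38140689-38141441, where Dam-Lamin A had 0 reads, Dam-Lap2b 39 and the reference 5.

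The second break on chromosome 9, chr9:38520806-38529119, was the deepest of the 4. Its 20 fragments averaged −1.12 in the Lamin A profile and −0.72 in the Lap2b profile, against 1.21 and 1.41 beside it. The reference held 113 reads per kb here, where it held 16.3 over the cluster, while the fusions held 63.0 and 76.3. Single fragments inside it differed in both directions, and 10 of the 20 were lower in the Lamin A profile after subtraction of the constants. The fragment chr9:38522169-38523142 had 1 read of Dam-Lamin A, 100 of Dam-Lap2b and 43 of the reference, while chr9:38527113-38527327, named after its values were seen, had 93, 6 and 83. The break overlapped chr9:38520001-38530000, the lowest bin of the chromosome 9 cluster and the only inner bin of the 3 clusters at or under 0 in both profiles. In the chromosome 2 cluster the number of such runs was 0, and in the chromosome 16 cluster both runs, of 40 and 30 kb, touched the bounds. With 5 kb bins the chromosome 16 cluster had 6 such runs.

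**Figure D3:**
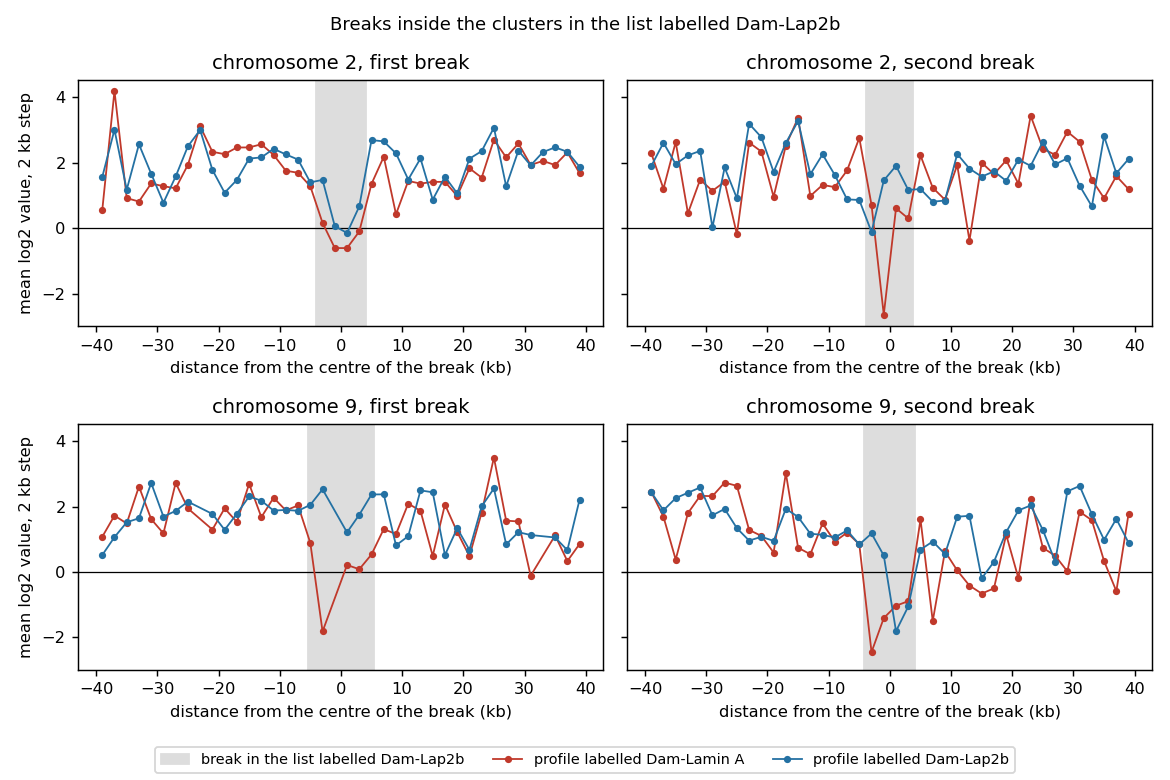
Mean log2 value in steps of 2 kb (vertical axis) against distance from the centre of each of the 4 breaks in kb. Red is the Lamin A profile, blue the Lap2b profile, and grey marks the break in the Lap2b list. The Lamin A profile is the lower on average in all 4 breaks, and in the first break on chromosome 9 the other profile stays at a mean of 1.84.

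Bins at or under 0 in the Lamin A profile and above 1 in the Lap2b profile made up 0.408% of the genome. The 3 clusters held 2 of 730 (0.274%), both on chromosome 9, a share below that background. One was chr9:38140001-38150000, which overlapped the first break there (−0.17 and 2.10). The other, named here after its values were seen, was chr9:39490001-39500000 (−0.17 and 1.90), which lay in both lists. These bins held 12 and 14 fragments, where the median bin of that cluster held 26. The part of fragment number and length in these dips was not tested.

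Averaged over fragments, the profiles differed little in the larger clusters. The Lamin A profile minus the Lap2b profile was −0.02 on chromosome 2, 0.01 on chromosome 9 and 0.20 on chromosome 16. The Lamin A profile was the higher in 219 of 470, 96 of 180 and 51 of 80 bins, against 44.2% of bins of the genome. In the flanks of chromosome 16 the difference was −0.36 and −0.24, so the Lamin A profile had the larger step between that cluster and its flanks. Weighting by length turned the difference over the clusters to −0.56, −0.58 and −0.34, all in favour of the Lap2b profile. With both profiles centred on their genome mean over bins, the difference over fragments on chromosome 2 was 0.069, so its sign depended on the scaling. That centring set an average over fragments against an average over bins. Over bins alone, the difference was −0.089 in that cluster and −0.090 over the genome.

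Fragment length separated the profiles inside the clusters. Fragments of 100 to under 300 bp, 6175 in all 3 clusters, averaged 2.15 in the Lamin A profile and 1.82 in the Lap2b profile. The 1528 fragments of 1000 bp or longer averaged 0.94 and 2.28, and the Lamin A profile was the higher in 13.1% of them. These long fragments were 7.84% of the fragments but 30.5% of the length. The same split appeared over the genome. Over all fragments in both lists, the long class averaged 0.59 in the Lamin A profile and 1.68 in the Lap2b profile, and the class of 100 to under 300 bp averaged 1.61 and 1.30. Bins of the clusters with under 20 fragments averaged 1.46 and 2.01 (116 bins), and those with 20 or more 1.84 and 1.81 (614 bins).

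**Figure D4:**
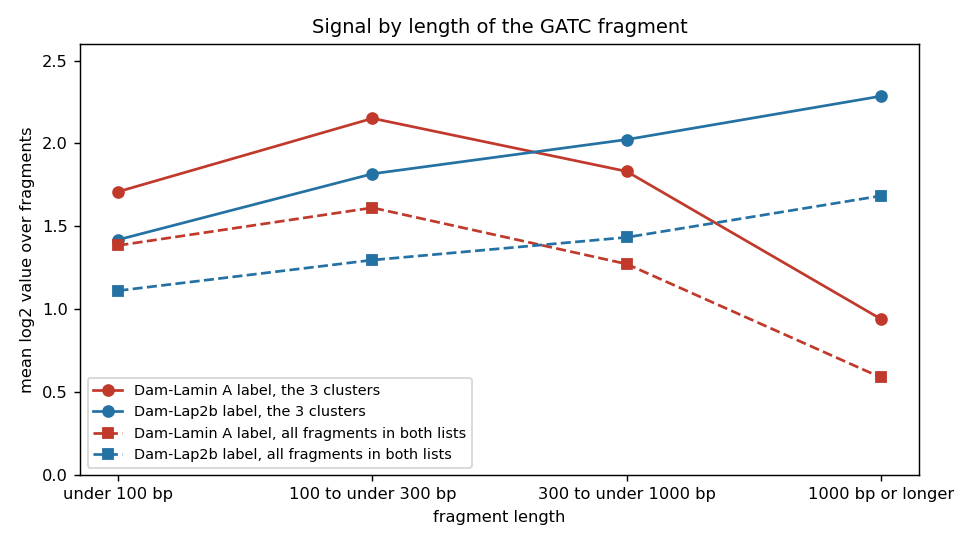
Mean log2 value over fragments (vertical axis) by class of fragment length (horizontal axis), in the 3 clusters (solid lines, circles) and over all fragments in both lists (dashed lines, squares). In the clusters the Lamin A profile (red) falls to 0.94 in the longest class, while the Lap2b profile (blue) reaches 2.28.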

How the data were processed

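DamID libraries of mouse embryonic fibroblasts were analysed in 3 groups of 1 sample each, grouped by the group given in the labels, and no separate file of the Dam only sample was used here. The authors deposited, for each fusion, log2 values per GATC fragment and a list of LADs with start and end but no score. The submitters' processing notes name Bowtie, a read aligner, and the build mm9. The counting, the normalization and the domain caller are not given in the sources used here. Coordinates are mm9, counted from 1, unless another build is named.

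From these files, fragments were assigned by their middle, averaged without weights and placed in 10 kb bins with at least 5 fragments. Whole reads were recovered as the smallest numbers, with denominators up to 5000, that gave both values with a constant of 0.085 and 0.022, the most frequent value of each profile. They were found for 99.996% of fragments and summed, in units of 1e6 reads, to at least 139.2 (Dam-Lamin A), 151.5 (Dam-Lap2b) and 153.3 (reference). The recovery and the binning were tested on simulated data. Regions were named by rule: clusters, flanks, breaks, the highest and lowest bin, and the nearest LAD edges. Runs of olfactory receptor genes were joined across up to 2 other genes. The clusters and lists were chosen with earlier results of these data known. Alternatives in weighting, bounds, flanks, bin size and thresholds were recomputed. Python 3.11.15, numpy 2.4.6, pandas 2.3.3 and numba 0.67.0 were used.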

Additional observations from a re-analysis of the deposited data

Results flagged for a closer look

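The 500 kb before the chromosome 16 cluster averaged −0.19 in the Lamin A profile and 0.18 in the Lap2b profile. It was flagged because these unweighted means over fragments have opposite signs. Their difference of −0.36 was also the largest in size among the clusters and flanks. Over its 50 bins the profiles averaged −0.48 and 0.02. The Lamin A profile was the higher in 13 of these bins (26%), against 44.2% of bins of the genome. The Lamin A median, 0.085, equalled the constant of that profile, and the Lap2b median, 0.192, lay above its constant of 0.022. Both fusions held fewer reads per kb than the reference. Dam-Lamin A held 41.8 recovered reads per kb there, Dam-Lap2b 60.7 and the reference 70.1. The difference was not tested, since each group had 1 sample.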

How the results depend on the processing

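Of 117 values recomputed with other settings, 99 stayed within the SD over bins, the 95% binomial interval over bins or 1.5 times the count, and 3 changed sign. All 36 recomputed cluster means stayed above 0 and within that SD. The SD of single bins is a wide margin for a mean over many bins. On chromosome 16 the Lamin A mean ran from 1.31 to 2.10, with an SD over bins of 1.14. The binomial intervals treat neighbouring bins as independent, so these counts describe the margins chosen and are not tests. The cluster minus its flanks moved with the flank. With 250 kb it was 0.45 (Dam-Lamin A) and 0.51 (Dam-Lap2b) on chromosome 2 and 0.191 and 0.175 on chromosome 9. Of these, the 0.191 counted as within the SD over bins, which was wider in the Lamin A profile. With 1 Mb it was 2.20 and 2.13 on chromosome 2 and 1.44 and 1.32 on chromosome 9. With 25 kb bins, 100% of the chromosome 9 cluster was above 0 in each profile. With LADs merged across gaps under 25 kb, 100% of the clusters on chromosomes 2 and 9 lay in both lists, and with bounds moved inward by 100 kb, 98.2% of the chromosome 16 cluster did. Breaks in the signal became 0 on chromosome 9 when 2 bins were required and 6 on chromosome 16 with 5 kb bins. Dam-Lamin A minus Dam-Lap2b became −0.56, −0.58 and −0.34 on chromosomes 2, 9 and 16 with weighting by fragment length. It became 0.069 on chromosome 2 when this average over fragments was centred on the genome means over bins. Long fragments, lower in the Lamin A profile, count for more under the weighting by length. No paired analysis was possible because each group had 1 sample, and no replicate could be left out. Single fragments rest on few reads, so 1 fragment shows no reliable difference.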
